A study of Homo sapiens with 6 samples.

Results

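The FK506-binding proteins (FKBPs) are the immunophilin family that binds the macrolide tacrolimus, and 10 of their genes (FKBP1A, FKBP1B, FKBP2, FKBP3, FKBP4, FKBP5, FKBP8, FKBP9, FKBP10 and FKBP14) were followed in human embryonic stem cells. They were chosen by gene symbol, 10 rows of the 23346 in the expression table, with earlier results of these data known. Each of the 10 reached the mean of 0.5 RPKM (reads scaled to gene length and library depth) that was required for testing, as did 14776 genes in all. The cells were KhES-1, a long-established line of human embryonic stem cells, kept in AKIT medium or in the control medium Essential 8 (E8); both groups grew on laminin-E8 fragment, applied at 0.5 µg/cm2. AKIT is known as a medium without added FGF2 or TGF-beta, whose small molecules inhibit GSK3, DYRK kinases and, through tacrolimus, calcineurin. E8 is a defined medium that contains both growth factors. Tacrolimus as an ingredient is background from knowledge of the medium and is not in the sample labels. RNA sequencing values of 3 AKIT libraries were set against those of 2 E8 libraries; the third E8 replicate is not analysed here.

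FKBPs are peptidyl-prolyl isomerases, enzymes that turn the bond before a proline. Tacrolimus fills the isomerase pocket of the small cytosolic member FKBP1A, and the complex of drug and protein then binds and blocks the phosphatase calcineurin; other members bind the drug with differing affinity. Larger members carry the same fold beside other domains: FKBP4 and FKBP5 join the HSP90 chaperone through tetratricopeptide repeats, FKBP8 sits on the mitochondrial membrane, FKBP3 is nuclear, and FKBP2, FKBP9, FKBP10 and FKBP14 are found in the endoplasmic reticulum (ER). RNA levels do not measure binding of the drug or the amount of protein.

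The 5 libraries held 16242864 to 23263095 reads, recovered from the steps of the RPKM values, and each FKBP gene had 84 to 7568 reads per library. AKIT replicate 2 stood apart, at -15.2 on the first principal component (66.5% of the variance), where the other AKIT libraries lay at -26.4 and -26.2 and the E8 libraries at 33.8 and 34, and calls that depend on it are given beside the results below. The pluripotency factor gene POU5F1 averaged 349 RPKM in AKIT and 328 RPKM in E8. The 12 pluripotency markers summed to 4484 to 4664 RPKM in AKIT and 5238 to 5294 RPKM in E8. In AKIT and E8, PODXL averaged 764 and 1172 RPKM, SOX2 254 and 435 RPKM, and LIN28A 805 and 951 RPKM. POU5F1, NANOG, ZFP42, DNMT3B and TERF1 averaged higher in AKIT, and the rest of the 12 lower. Whether replicates came from separate cultures is not stated in the labels, and the p-values then reflect only how these libraries vary, which may be technical.

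Summed marker levels of other lineages were 212 to 276 RPKM in AKIT and 369 to 371 RPKM in E8 for 12 fibroblast and mesenchyme genes, 395 to 424 RPKM in AKIT and 344 to 365 RPKM in E8 for 7 neuroectoderm genes, 6.35 to 10.8 RPKM in AKIT and 3.19 to 3.22 RPKM in E8 for 7 endoderm genes, and 10.6 to 27.1 RPKM in AKIT and 34.1 to 36.9 RPKM in E8 for 7 trophoblast and amnion genes. "Rose" and "fell" are used of genes with an adjusted p under 0.05 in limma's moderated test with Benjamini-Hochberg adjustment over all 14776 genes, and a difference is the AKIT mean less the E8 mean of log2(RPKM + 1), ± standard error, a scale that understates changes of low genes. Means carry their SD (AKIT n = 3, E8 n = 2). By that test 1 of 12 pluripotency markers rose (TERF1) and 2 fell (SOX2 and PODXL), 5 of 9 tested fibroblast and mesenchyme markers fell (S100A4, PDGFRB and THY1 among them), 1 of 4 tested neuroectoderm markers rose (TUBB3), 1 of 3 tested endoderm markers rose (FOXA2) and 3 of 6 tested trophoblast and amnion markers fell (IGFBP3, TFAP2A and KRT7). HAND1 and CGA of this last list, named after their values were seen, lay above E8 in every AKIT library and did not pass the test. HAND1 had 6.31, 2.795 and 1.78 RPKM in AKIT replicates 1, 2 and 3, against 1.04 and 0.921 RPKM in E8 replicates 1 and 2. Without AKIT replicate 2, 2 pluripotency markers rose and 3 fell, and 1 trophoblast and amnion marker rose beside the 3 falls. Without AKIT replicate 1, 3 fibroblast and mesenchyme markers fell and 0 pluripotency markers rose. Without AKIT replicate 3, 2 fibroblast and mesenchyme markers rose and 2 fell, and 0 pluripotency markers rose and 1 fell. That fit also had 1 rising trophoblast and amnion marker beside 3 falls. When an E8 library was dropped there was 1 falling fibroblast and mesenchyme marker and no other call among the markers. The fibroblast and mesenchyme sum was mostly THY1 (145 to 203 RPKM in AKIT and 273 to 275 RPKM in E8). The neuroectoderm sum was mostly NES and TUBB3. NES had 191 to 207 RPKM in AKIT and 208.5 to 222 RPKM in E8. TUBB3 had 179 to 224 RPKM in AKIT and 128 to 136.5 RPKM in E8. IGFBP3 made up most of the trophoblast and amnion sum in E8 (24.2 to 26.2 RPKM). The sums do not measure numbers of cells of these lineages. The part of any such cells in the FKBP values was not tested.

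Of the 10 FKBP genes, FKBP1A rose and FKBP1B fell, and the other 8 did not pass the test. Over all tested genes 20.0% were called (8.22% rose and 11.7% fell), so 2 calls among 10 genes is the share found for genes at large. The median difference of the 10 was -0.11, and that of all tested genes -0.01. Libraries of the 2 media did not overlap for 6 of the 10, with AKIT above E8 for 2 and below E8 for 4, beside 54.4% of all tested genes (25.8% above and 28.6% below). Without AKIT replicate 2, FKBP1A and FKBP4 rose and FKBP1B and FKBP10 fell, beside 32.2% of all genes tested called, and with either E8 library left out none of the 10 was called (limma, beside 2.66% of genes without E8 replicate 2 and 2.69% without E8 replicate 1). With all libraries, 2 of the 10 were higher and 4 lower at an unadjusted p under 0.05. This cut-off is looser than that behind the 20.0%. The share of all genes that meets it is not given here, so these counts are not set against genes at large. Of the 10 differences, that of FKBP1B was the largest in size.

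**Figure D1:**
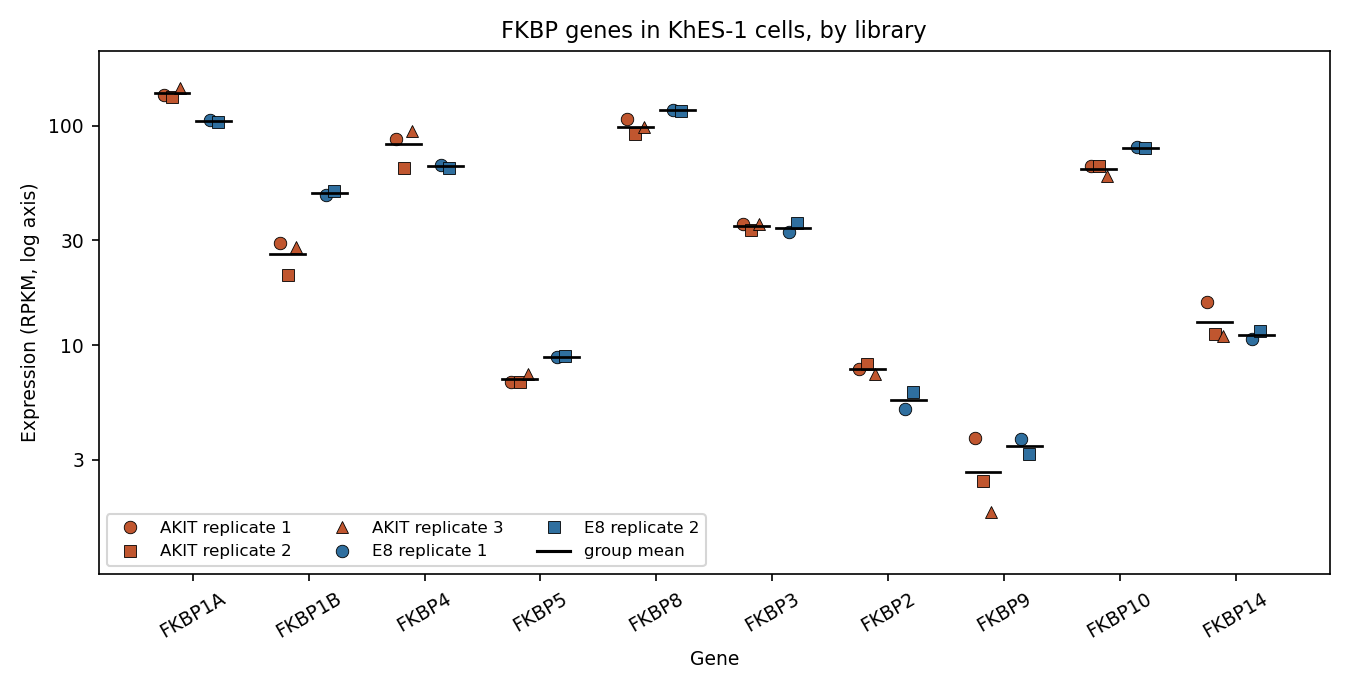
Expression of the 10 FKBP genes in each library, in RPKM on a log axis, with AKIT left of E8 for each gene, symbols for replicates and a bar for the group mean (n = 3 AKIT and 2 E8 libraries). FKBP1A lies above and FKBP1B below E8 in all 3 AKIT libraries, and for FKBP4 AKIT replicate 2 lies at the level of E8 while AKIT replicates 1 and 3 lie above it.

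The small cytosolic pair carries both calls. Their promoters are shown because these are the genes that passed the test, in opposite directions. The sequences are RefSeq's on GRCh38.p14, the 250 bases before the annotated start, 5′ to 3′ along the gene. The expression values were made on another build, hg19, so no position of the values is given. Capitals mark matches, on either strand, to 3 of 12 motifs searched: the box spelled CCAAT, the GC box spelled GGGCGG and the core site of ETS factors spelled CCGGAAG.
FKBP1A, chr20:1393055-1393304, minus strand: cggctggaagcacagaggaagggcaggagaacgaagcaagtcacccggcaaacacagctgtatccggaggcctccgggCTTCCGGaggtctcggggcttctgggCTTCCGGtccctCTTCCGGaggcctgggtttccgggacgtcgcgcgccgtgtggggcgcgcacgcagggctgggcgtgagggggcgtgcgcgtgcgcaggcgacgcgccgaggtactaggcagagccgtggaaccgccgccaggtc
FKBP1B, chr2:24049491-24049740, plus strand: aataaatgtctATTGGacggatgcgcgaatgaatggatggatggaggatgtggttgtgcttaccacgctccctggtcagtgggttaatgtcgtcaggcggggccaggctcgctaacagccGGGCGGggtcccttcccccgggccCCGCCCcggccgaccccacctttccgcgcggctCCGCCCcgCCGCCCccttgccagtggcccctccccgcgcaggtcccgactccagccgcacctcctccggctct
The FKBP1A window held 3 matches to the ETS core and none to the other 2 motifs. At least 1 match to the ETS core occurred in 8.52% of 35116 promoter windows of the same length. The FKBP1B window held 4 GC boxes and 1 CCAAT box, and no marked matches overlapped. At least 1 GC box occurred in 42.6% of windows, and at least 1 CCAAT box in 32.0%. Both windows were rich in G and C, at 70.8% for FKBP1A and 68.4% for FKBP1B against a median of 58.0% over all windows. No match was found in either window to the other 9, which were the TATA box (TATAAA), the E-box bound by MYC and related factors (CACGTG), the cyclic AMP response element (TGACGTCA), the core of the heat shock element (GAANNTTC), the unfolded protein response element (TGACGTG), the glucocorticoid receptor element (AGAACA), the palindromic SMAD element (GTCTAGAC), the T cell factor element (CTTTGAT) and the core site of NFAT factors (GGAAAA). Those 9 motifs were found in 0.182% to 21.2% of all windows. Matches and their lack describe letters only.

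FKBP1A encodes the small cytosolic protein whose complex with tacrolimus inhibits calcineurin, and which also binds type I receptors of the TGF-beta family. It had 139, 136 and 149 RPKM in AKIT replicates 1, 2 and 3, against 106 and 104 RPKM in E8 replicates 1 and 2. All AKIT libraries were above both E8 libraries, and AKIT replicate 2 did not stand apart for this gene. FKBP1A rose by 34.4% in the means, to 141 ± 6.67 RPKM in AKIT, against 105 ± 1.24 RPKM in E8 (log2 difference 0.42 ± 0.09, 95% interval 0.20 to 0.64, limma adjusted p = 0.0228). The call was lost when AKIT replicate 3 was left out (limma adjusted p = 0.053) and with either E8 library left out (0.199 without E8 replicate 1 and 0.224 without E8 replicate 2), within 0.00466 to 0.224 over 15 alternatives, while the difference stayed between 0.38 and 0.45 in all of them. It was the most abundant of the 10 in AKIT, and in E8 it came after FKBP8.

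FKBP1B encodes the closest relative of FKBP1A, best known as the partner of the ryanodine receptor calcium channel in heart and brain. It had 29.2, 20.8 and 28.1 RPKM in AKIT replicates 1, 2 and 3, against 48.4 and 50.4 RPKM in E8 replicates 1 and 2. The groups were well apart, and AKIT replicate 2 was the lowest library. FKBP1B fell by 47.3% in the means, to 26.0 ± 4.56 RPKM in AKIT, against 49.4 ± 1.41 RPKM in E8 (log2 difference -0.91 ± 0.15, 95% interval -1.27 to -0.55, limma adjusted p = 0.00948). Leaving out AKIT replicate 2 gave a difference of -0.77 (limma adjusted p = 0.00167). The call ended with either E8 library left out (limma adjusted p = 0.0847 without E8 replicate 1 and 0.0958 without E8 replicate 2), within 0.00113 to 0.0958 over 15 alternatives.

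Within a library, FKBP1A was 4.75, 6.54 and 5.30 times as abundant as FKBP1B per length in AKIT replicates 1, 2 and 3, against 2.19 and 2.07 times in E8 replicates 1 and 2. FKBP1B accordingly made up 17.4%, 13.3% and 15.9% of the summed RPKM of the pair in AKIT, against 31.4% and 32.6% in E8. The pair together stood at 167 ± 10.03 RPKM in AKIT and 154 ± 0.212 RPKM in E8, with the AKIT libraries above the E8 libraries. These ratios and sums are descriptions with no test.

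**Figure D2:**
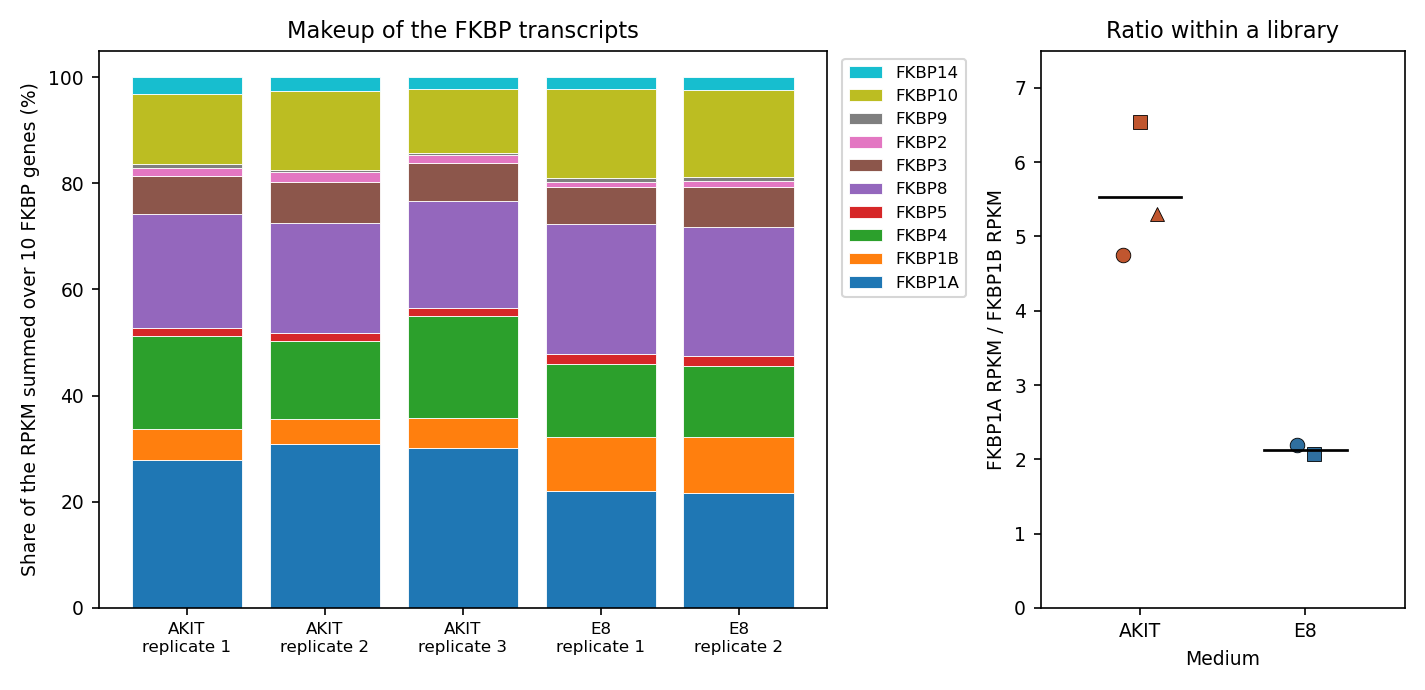
Left, share of the RPKM summed over 10 FKBP genes that each gene took in each library (bars, in %). Right, the ratio of FKBP1A to FKBP1B RPKM within each library (points, symbols for replicates as in the plot of levels by library: circle 1, square 2, triangle 3; bar, group mean), at 4.75 to 6.54 in AKIT and 2.07 to 2.19 in E8.

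Reads that several genes could share bear on these values. Of the 50-base words of the longest coding FKBP1A transcript in GENCODE release 29, 27.0% also occur in FKBP1C, an intronless copy not analysed here. Of those of FKBP1B, 43.6% lie in annotated transcripts of its same-strand neighbour MFSD2B. The MFSD2B row held 0, 0.0570 and 0.274 RPKM in AKIT replicates 1, 2 and 3, against 0.0376 and 0.0408 RPKM in E8 replicates 1 and 2, far under FKBP1B. The pseudogene row FKBP1AP1 was at 0.439 to 0.916 RPKM in AKIT and 0.487 to 0.827 RPKM in E8, and FKBP1A-SDCBP2, the read-through with the neighbouring gene, at 3.06 to 4.22 RPKM in AKIT and 3.47 to 3.66 RPKM in E8. How the authors' counting treated such shared reads is not given in the sources used here, so levels of FKBP1A and FKBP1B are uncertain to that degree.

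The HSP90 partners FKBP4 and FKBP5 act on steroid receptors, FKBP4 helping the receptor reach the nucleus and FKBP5 holding its hormone affinity down. FKBP4 had 87.0, 64.5 and 95.2 RPKM in AKIT replicates 1, 2 and 3, against 66.5 and 64.6 RPKM in E8 replicates 1 and 2. AKIT replicates 1 and 3 were high and AKIT replicate 2 was at the level of E8. With all libraries the log2 difference was 0.30 ± 0.17 (95% interval -0.09 to 0.70, limma adjusted p = 0.232); without AKIT replicate 2 FKBP4 rose by 0.47 (limma adjusted p = 0.00873), and over 15 alternatives its adjusted p ran from 0.00873 to 0.553.

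FKBP5, a well-known glucocorticoid-induced gene, had 6.82, 6.76 and 7.42 RPKM in AKIT replicates 1, 2 and 3, against 8.79 and 8.92 RPKM in E8 replicates 1 and 2. Every AKIT library was below both E8 libraries by a small margin. The difference did not pass the test (-0.30 ± 0.10, 95% interval -0.55 to -0.06, limma adjusted p = 0.0849), and passed with array weights (0.0454) and in limma's voom on recovered reads (0.0452), within 0.0452 to 0.381 over 15 alternatives. The ratio of FKBP4 to FKBP5 was 12.8, 9.54 and 12.8 in AKIT replicates 1, 2 and 3 and 7.57 and 7.24 in E8 replicates 1 and 2.

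FKBP8, an anchored member of the outer mitochondrial membrane that binds BCL2 and takes part in mitophagy, had 107, 91.6 and 99.1 RPKM in AKIT replicates 1, 2 and 3, against 118 and 117 RPKM in E8 replicates 1 and 2. AKIT was below E8 in each library, with replicate 2 the lowest. The log2 difference of -0.25 ± 0.10 did not pass the test (95% interval -0.49 to -0.0054, limma adjusted p = 0.132), nor under any of 15 alternatives (0.0664 to 0.462). FKBP8 was the most abundant of the 10 in E8.

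FKBP3, a nuclear member that binds DNA-associated proteins such as histone deacetylases, had 35.8, 33.6 and 35.9 RPKM in AKIT replicates 1, 2 and 3, against 32.7 and 36.0 RPKM in E8 replicates 1 and 2. The media overlapped, and the difference was 0.03 ± 0.09 with a 95% interval from -0.19 to 0.26 (limma adjusted p = 0.84). Its exons overlap those of PRPF39, a splicing factor gene on the opposite strand, which hold 36.9% of its 50-base words, and without stated use of strand their reads cannot be told apart. PRPF39 had 10.3, 12.2 and 8.50 RPKM in AKIT replicates 1, 2 and 3, against 10.3 and 9.96 RPKM in E8 replicates 1 and 2.

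Of the 4 members of the endoplasmic reticulum, FKBP10 was the most abundant. It assists procollagen folding and the cross-linking of collagen by lysyl hydroxylases, and its loss causes brittle bones. FKBP10 had 65.4, 65.4 and 59.1 RPKM in AKIT replicates 1, 2 and 3, against 80.2 and 78.9 RPKM in E8 replicates 1 and 2. All AKIT libraries were below E8, and the difference lay just outside the threshold (-0.33 ± 0.09, 95% interval -0.55 to -0.11, limma adjusted p = 0.0503). Without AKIT replicate 2 it fell (-0.35, limma adjusted p = 0.0223), and its adjusted p ran from 0.0134 to 0.314 over 15 alternatives. The summed fibroblast and mesenchyme markers were also lower in AKIT (212 to 276 RPKM, against 369 to 371 RPKM in E8). That sum was made up mostly of THY1 (145 to 203 RPKM in AKIT and 273 to 275 RPKM in E8). Of 9 tested markers 5 fell, and 1 of the 12, FAP, was listed at 0. The matrix genes COL3A1 and LUM, named after their values were seen, went the other way without passing the test. COL3A1 had 0.141 to 5.63 RPKM in AKIT and at most 0.0413 RPKM in E8. LUM had 0.0244 to 5.81 RPKM in AKIT and 0 in E8. The part of these markers in the level of FKBP10 was not tested. In bulk RNA, fewer cells of a type and less RNA per cell cannot be told apart.

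FKBP2, a small ER isomerase, was near the threshold on the other side. It had 7.77, 8.23 and 7.39 RPKM in AKIT replicates 1, 2 and 3, against 5.09 and 6.12 RPKM in E8 replicates 1 and 2, on 84 to 179 reads per library, in total the fewest of the 10. AKIT was above E8 throughout, and the 2 E8 libraries differed from each other by more than the AKIT libraries did. The difference was 0.42 ± 0.12 (95% interval 0.13 to 0.70, limma adjusted p = 0.0508, with 0.0328 to 0.363 over 15 alternatives).

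FKBP9 and FKBP14, ER members with calcium-binding EF hands, of which FKBP14 acts on collagen and is mutated in a form of Ehlers-Danlos syndrome, did not pass the test and varied most, relative to their means, among the AKIT libraries. FKBP9 had 3.78, 2.40 and 1.74 RPKM in AKIT replicates 1, 2 and 3, against 3.72 and 3.19 RPKM in E8 replicates 1 and 2 (-0.33 ± 0.23, 95% interval -0.88 to 0.22, limma adjusted p = 0.352). FKBP14 had 15.8, 11.2 and 11.1 RPKM in AKIT replicates 1, 2 and 3, against 10.7 and 11.6 RPKM in E8 replicates 1 and 2 (0.16 ± 0.16, 95% interval -0.23 to 0.54, limma adjusted p = 0.525). Single libraries moved both values: the FKBP9 difference was -0.54 without AKIT replicate 1 and -0.14 without AKIT replicate 3, and that of FKBP14 was 0.0032 without AKIT replicate 1, within 0.0032 to 0.24 over 15 alternatives. AKIT replicate 1 was the highest AKIT library for both genes. It was also the highest AKIT library for 10 of the 12 fibroblast and mesenchyme markers, among them the matrix genes COL3A1, whose AKIT replicates 1, 2 and 3 held 5.63, 2.15 and 0.141 RPKM against at most 0.0413 RPKM in E8, and LUM, with 5.81, 1.83 and 0.0244 RPKM in AKIT and 0 in E8, 2 markers named here after their values were seen. These 2 were above E8 in every AKIT library and did not pass the test, whereas the 5 markers that fell were below E8, and 1 of those, COL1A1, was lowest in AKIT replicate 1 (32.5 RPKM, with 41.8 and 38.7 RPKM in AKIT replicates 2 and 3 and 51.9 and 55.5 RPKM in E8). The part of such cells in FKBP9 and FKBP14 was not tested. FKBP9 shares 38.4% of its 50-base words with its pseudogene copy FKBP9P1, whose row (FKBP9L) was at 0.0667 to 0.111 RPKM in AKIT and 0.0366 to 0.159 RPKM in E8.

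**Figure D3:**
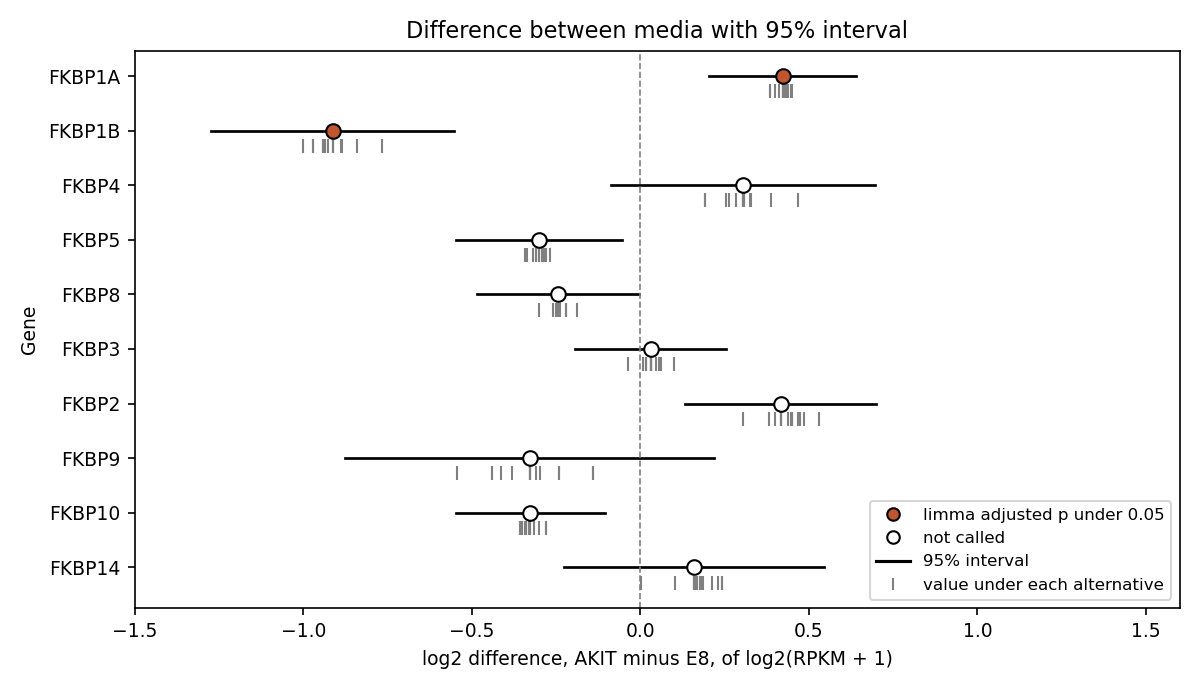
Difference between AKIT and E8 for each FKBP gene on the log2(RPKM + 1) scale (circle, filled where limma's adjusted p was under 0.05; line, 95% interval; grey ticks, the value under each of 15 alternative analyses). The ticks of FKBP1A stay between 0.38 and 0.45 and those of FKBP1B between -1.001 and -0.77, and FKBP3 has a tick on the other side of 0.

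Summed over the 10 genes, FKBP transcripts stood at 498, 441 and 494 RPKM in AKIT replicates 1, 2 and 3, against 480.1 and 480.9 RPKM in E8 replicates 1 and 2. The media overlapped in this total, with AKIT replicate 2 the lowest library. FKBP1A took 29.6 ± 1.54% of it in AKIT and 21.9 ± 0.283% in E8, FKBP8 took 20.8 ± 0.720% in AKIT and 24.5 ± 0.177% in E8, and FKBP10 took 13.3 ± 1.44% in AKIT and 16.55 ± 0.219% in E8. The 4 ER members together stood at 86.4 ± 6.74 RPKM in AKIT and 99.75 ± 0.0566 RPKM in E8. In AKIT the order of the means was FKBP1A, FKBP8, FKBP4, FKBP10, FKBP3, FKBP1B, FKBP14, FKBP2, FKBP5 and FKBP9, and the library ranges overlapped between FKBP8 and FKBP4, between FKBP4 and FKBP10, and between FKBP2 and FKBP5. In E8 the order was FKBP8, FKBP1A, FKBP10, FKBP4, FKBP1B, FKBP3, FKBP14, FKBP5, FKBP2 and FKBP9, with no overlap between neighbours over 2 libraries. FKBP1B thus stood below FKBP3 in AKIT and above it in E8.

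The other family genes lay at or under 15.2 RPKM in every library. Of 8 other FKBP family rows, 5 were tested and limma called none (0 at an unadjusted p under 0.05, and 0 by voom). FKBP11, a secretory pathway member, had 12.7, 15.2 and 12.6 RPKM in AKIT replicates 1, 2 and 3, against 11.1 and 10.96 RPKM in E8 replicates 1 and 2 (0.27 ± 0.12, limma adjusted p = 0.143). FKBPL, an HSP90-binding relative, averaged 11.6 RPKM in AKIT and 9.16 RPKM in E8, FKBP15, an endosomal protein, 4.56 and 4.06 RPKM, and FKBP7, an ER member, 1.38 and 1.72 RPKM (AKIT and E8 in each case). AIPL1, a photoreceptor gene, at 0.333 to 0.536 RPKM in AKIT and 0.553 to 0.705 RPKM in E8, and FKBP9L were under the level required for testing, and FKBP6 was listed at 0 in all 5 libraries.

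Calcineurin, which the tacrolimus complex blocks, had 1 of its 4 tested subunit genes called. The catalytic subunit gene PPP3CA fell to 7.72, 7.28 and 8.07 RPKM in AKIT replicates 1, 2 and 3, against 14.5 and 12.9 RPKM in E8 replicates 1 and 2 (-0.76 ± 0.11, limma adjusted p = 0.00538). The other catalytic genes PPP3CB, at 13.6 RPKM in AKIT and 13.8 RPKM in E8, and PPP3CC, at 0.919 and 0.582 RPKM, and the regulatory subunit gene PPP3R1, at 48.3 and 47.2 RPKM, did not pass, and PPP3R2 was listed at 0 in every library. FKBP1A was thus more abundant per length than each of them in both media. Of 11 tested calcineurin regulators and NFAT factors, 3 fell and 0 rose (0 rose at an unadjusted p under 0.05 and by limma's voom): RCAN2, a calcineurin regulator (-1.33 ± 0.14, with 1.21, 1.29 and 1.65 RPKM in AKIT replicates 1, 2 and 3 and 4.72 and 5.27 RPKM in E8 replicates 1 and 2), CHP2, a calcineurin B homologous protein (-0.91 ± 0.13), and the transcription factor NFATC1 (-0.74 ± 0.14). Over all tested genes 11.7% fell with all libraries. Leaving out AKIT replicate 2 gave 4 falls, in a fit in which 17.8% of all tested genes fell. With either E8 library left out, the only calls among these calcineurin genes were 1 fall in the second list.

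Of 17 cyclophilins, the immunophilin family bound by cyclosporin, 3 rose and 0 fell in limma (1 was lower at an unadjusted p under 0.05; voom called 1 rise and 0 falls): RANBP2, a nuclear pore protein with a cyclophilin domain (0.66 ± 0.11), and the splicing-associated PPIH (0.50 ± 0.14) and PPWD1 (0.39 ± 0.11). Without AKIT replicate 2, 6 rose and 1 fell, in a fit in which 14.5% of all tested genes rose and 17.8% fell. With all libraries these shares were 8.22% and 11.7%. There was 1 rise without AKIT replicate 1 or without AKIT replicate 3. The median difference of the 17 cyclophilins was 0.20, against -0.01 for all tested genes. Of these genes, PPID is counted again below with HSP90, and PPIB with collagen folding.

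The partners of single FKBPs were set beside them. The list of HSP90 and proteins that work with it held 15 genes, including the chaperone genes HSPA8 and HSPA4 and the glucocorticoid receptor gene NR3C1. Limma called none of them with all libraries, with 4 higher and 0 lower at an unadjusted p under 0.05 and 1 rise by voom. The smallest p was that of HSPA4 (0.35 ± 0.11). Without AKIT replicate 2, in which FKBP4 was the lowest of the AKIT libraries, 5 genes of this list rose. In that fit 14.5% of all tested genes rose. Of 11 tested glucocorticoid-responsive genes other than FKBP5, 3 fell and 1 rose, with the transcription factor CEBPD (-1.09 ± 0.24) and the kinase gene SGK1 (-0.81 ± 0.15) among the falls and the metallothionein MT2A (1.05 ± 0.20) as the rise. Without AKIT replicate 3, 2 of them fell, in a fit in which 7.55% of all tested genes fell, against 11.7% with all libraries. Of 16 ER chaperones and stress genes, 5 rose and 0 fell (1 was lower at an unadjusted p under 0.05; voom called 9 rises and 0 falls), led by the co-chaperone DNAJB11 (0.89 ± 0.14), the ER stress gene CRELD2 (0.67 ± 0.15) and the lectin chaperone CANX (0.65 ± 0.11). The median of this list was 0.47, while the 4 ER members of the FKBP family had differences of 0.42 (FKBP2), 0.16 (FKBP14), -0.33 (FKBP9) and -0.33 (FKBP10). Without AKIT replicate 2, 14 of the 16 ER chaperones rose, in a fit in which 14.5% of all tested genes rose, against 8.22% with all libraries.

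Of 15 tested genes of collagen folding, 3 fell and 0 rose (0 were higher at an unadjusted p under 0.05 and 0 rose by voom), with a median of -0.14. With all libraries 11.7% of all tested genes fell. Leaving out AKIT replicate 2 or AKIT replicate 3 gave 1 rise beside 3 falls. In those fits 17.8% and 7.55% of all tested genes fell. The 3 falls with all libraries were the prolyl 3-hydroxylase genes P3H2 (row LEPREL1, -1.48 ± 0.28) and P3H3 (row LEPREL2, -0.70 ± 0.10) and the collagen-binding SPARC (-0.85 ± 0.17). Of 4 tested type I receptors of the TGF-beta family, to which FKBP1A binds, limma called none (1 higher and 1 lower at an unadjusted p under 0.05, 0 by voom), with ACVR1 at 0.30 ± 0.11, and without AKIT replicate 2, 2 rose and 1 fell. Of 6 calcium release channels, partners of FKBP1A and FKBP1B, 3 were tested and ITPR2 fell (-0.53 ± 0.12), a call that ended without AKIT replicate 3. RYR2, the cardiac ryanodine receptor gene, was under the level required for testing, at 0.197 to 0.344 RPKM in AKIT and 0.633 to 0.737 RPKM in E8. Of 8 genes of the mTOR complexes, targets of FKBP1A with rapamycin, the mTOR inhibitor gene DEPTOR rose (0.56 ± 0.14), a call that ended without AKIT replicate 1 or 3. Of 6 partners of FKBP8, limma called none (1 higher and 1 lower at an unadjusted p under 0.05, 0 by voom), with BCL2L1 at -0.31 ± 0.11, and 1 rose when AKIT replicate 2 was left out. With either E8 library left out, limma called no gene of these lists, from the cyclophilins to the partners of FKBP8.

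**Figure D4:**
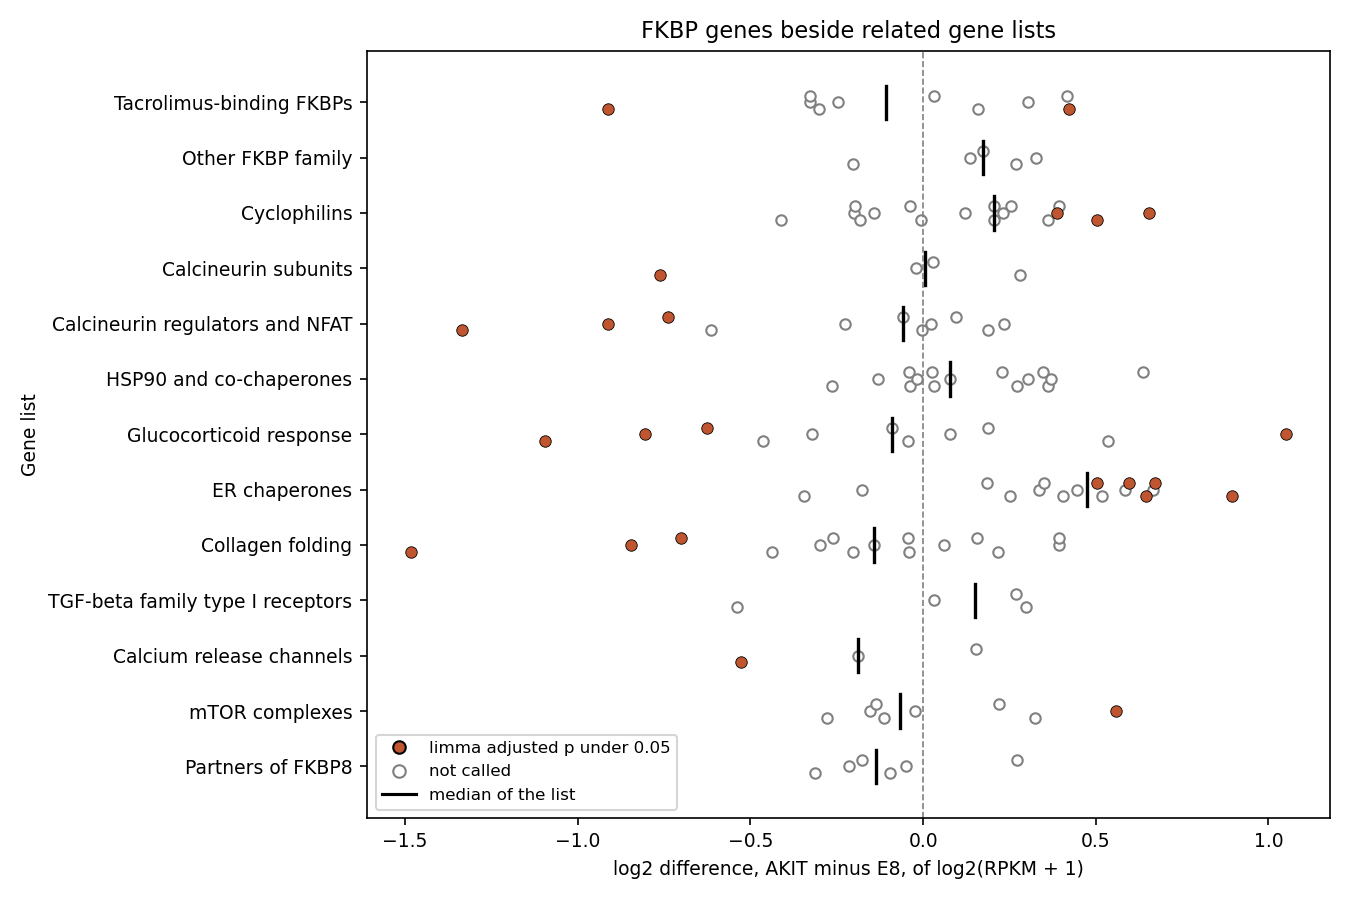
Difference between AKIT and E8 on the log2(RPKM + 1) scale for each tested gene of the FKBP genes and of related lists (circles, filled where limma's adjusted p was under 0.05; bar, median of the list). The median was -0.11 for the 10 FKBP genes, 0.47 for ER chaperones and 0.20 for cyclophilins. The plot labels the 10 as tacrolimus-binding, but they were chosen by symbol and binding was not measured.

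The genes closest to FKBP1A in pattern over the 5 libraries, by root mean square difference of mean-centred log2(RPKM + 1) among 9473 genes averaging 5 RPKM or more, were PTP4A1, a phosphatase (0.018), TOMM70A, a mitochondrial import receptor (0.019), and EXO1, an exonuclease of mismatch repair (0.020). Those closest to FKBP1B were C2CD2 (0.030), FYTTD1, an mRNA export factor (0.035), and TSPO, a protein of the outer mitochondrial membrane (0.042). TSPO had 6.25, 4.30 and 5.60 RPKM in AKIT replicates 1, 2 and 3 and 10.4 and 10.6 RPKM in E8 replicates 1 and 2. Like FKBP1B, TSPO was lowest in AKIT replicate 2, which is part of the pattern it was chosen for and no separate finding.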

How the data were processed

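RNA sequencing of KhES-1 cells was deposited as RPKM per gene symbol, normalized by the authors for gene length and depth; the builds hg19 and GRCh37 come from the submitters' processing notes, and for aligner, counter, annotation and strandedness the sources give no name (not given in the sources used here). Columns were matched to samples by title, 3 AKIT and 2 E8 of 6 samples, so the planned comparison ran as 3 against 2. Values were tested as log2(RPKM + 1) with limma 3.58.1 (R 4.3.3, intensity trend, two-sided, Benjamini-Hochberg over 14776 genes averaging 0.5 RPKM or more), after a check on simulated data. The simulated libraries all had the same scatter, so that check does not cover groups of unequal spread. Whole reads were recovered from the RPKM steps and used only for depth, for voom and for comparing replicates. By chi-square per gene on those reads, pairs of AKIT libraries differed by 16.6 to 31.7 and the E8 pair by 3.31. The members and gene lists were chosen with earlier results of these data known. All members, other FKBP rows and 4 calcineurin genes were named, apart from items that are not reported here, and from each other list up to 3 called genes with the largest differences, or the smallest p where none was called. Alternatives changed the pseudocount (0.1, 0.5), the filter (none, 2 RPKM), scaling, weights, trend, test and libraries. Shared 50-base words were counted in GENCODE release 29, and promoters of 6 of the 10 members were matched in RefSeq and searched for 12 motifs.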

Additional observations from a re-analysis of the deposited data

How the results depend on the processing

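Over 15 alternatives, FKBP1A and FKBP1B kept their direction throughout, with calls in 11 and 13, and of 150 member values 131 kept direction and side of the threshold, 12 came to pass the test, 6 no longer passed and 1 changed sign. All genes called numbered 2950, against 5009 (33.9% of genes tested) with array weights, 1316 (8.91%) with a replicate block and 392 to 4751 with 1 library left out. The share of genes called was 20.0% with median-of-ratios scaling, 21.3% with a minimum mean of 2 RPKM, 20.1% with quantile normalization and 21.2% with voom. Members that rose (1) numbered 3 with array weights, 2 with median-of-ratios scaling, with a minimum mean of 2 RPKM and with quantile normalization, 0 with the replicate block, and 0 to 2 with 1 library left out. Members that fell (1) numbered 3 with array weights and with voom, 2 with quantile normalization, and 0 to 2 with 1 library left out. Values that changed sign were near 0: FKBP3 at -0.0370 to 0.0998 with 1 library left out; PPP3CB at 0.0037 with median-of-ratios scaling, 0.0017 with quantile normalization and -0.0857 to 0.0468 with 1 library left out; PPP3R1 at -0.0003 with quantile normalization, -0.0658 with the replicate block and -0.0658 to 0.103 with 1 library left out. The summed FKBP level differed by -3.27 RPKM, and by -13.4 to 15.1 RPKM with 1 library left out. Same-numbered libraries had correlations of deviations from the group mean of -0.001 and 0.025. The deviations of the 2 E8 libraries mirror each other, so these values cannot tell whether a batch was shared. The labels do not say. Under the replicate block FKBP1A had a limma adjusted p of 0.105. AKIT replicate 3 has no E8 library of its number, so the block also takes it out of the difference. The FKBP1A difference was 0.3843 with the block and 0.3843 without AKIT replicate 3. Without 1 E8 library, the lone one is assumed to vary like AKIT. The causes were not tested.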
